A study of Mus musculus with 12 samples.

Results

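Kit, Flt3 and Cd34 are 3 genes for surface proteins that mark immature blood cells, and their open chromatin was followed here in mouse HoxB8 cells with and without the mutant receptor CSF3R T618I and a guide against Asxl1. The 3 genes were set by name. Their regions were all peaks overlapping the mm10 span of a gene or the 50 kb on either side of it, which gave 27 of the 56682 regions in the series (6 around Kit, 11 around Flt3 and 10 around Cd34). HoxB8 cells are mouse marrow progenitors kept dividing by Hoxb8, a transcription factor that is active in this line while estrogen is present. ATAC-seq, in which a transposase cuts accessible DNA, was run in 4 groups of 3 libraries each. The sgB2/T618I cells carried a guide against Asxl1 (B2), made to truncate this Polycomb-associated protein, and a pMICH vector that expressed CSF3R with the T618I change, an activated version of the G-CSF receptor. The sgNT/T618I cells carried a non-targeting guide with the same vector, the sgB2/Empty cells the Asxl1 guide with the empty pMICH vector, and the sgNT/Empty cells the non-targeting guide with the empty vector. All groups, the sgNT/Empty controls included, were grown in medium with 2% of a conditioned medium holding stem cell factor (SCF) and 0.6 µM estrogen, and all were sampled 48 h after estrogen was withdrawn. The study asked how Asxl1 truncation and CSF3R T618I, alone and together, bear on the maturation of such cells. Whether libraries of 1 group were separate cultures, whether a line was a clone and which cells of a culture took up a vector are not given by the labels, so p-values measure only the spread between these libraries, which may be technical.

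Kit is the receptor tyrosine kinase for SCF, the factor in the medium of all these cells. It is carried by stem cells and early progenitors, is lost as granulocytes mature and stays high in mast cells. Flt3, a receptor tyrosine kinase of the same class, binds Flt3 ligand and marks multipotent and lymphoid-primed progenitors. Cd34 is a sialomucin, a heavily glycosylated surface protein of progenitors and of blood vessel cells. Open promoters and enhancers of such genes are bound in progenitors by GATA, ETS (PU.1 among them), RUNX, C/EBP, E-box binding and MYB factors.

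Kit lies at chr5:75574987-75656722 on the plus strand, Flt3 at chr5:147330741-147400489 on the minus strand and Cd34 at chr1:194938821-194961292 on the plus strand. The windows of Kit and Cd34 hold no other protein-coding gene, while that of Flt3 also takes in Cdx2, Urad and Pan3. The 250 bases before each transcription start are shown because a region with peaks covered the start of each gene, and because the region at the Kit start differed with the vector. They come from RefSeq (GRCm38.p6, the build of mm10), which had an entry for 3 of 3 genes, and are written 5′ to 3′ on the strand of the gene, with capitals marking the matches to 6 motifs.
Kit, chr5:75574737-75574986: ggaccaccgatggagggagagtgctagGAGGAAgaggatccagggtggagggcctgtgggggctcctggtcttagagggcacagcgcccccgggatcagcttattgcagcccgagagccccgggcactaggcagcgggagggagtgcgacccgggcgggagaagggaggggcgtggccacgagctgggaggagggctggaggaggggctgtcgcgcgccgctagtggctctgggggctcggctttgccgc
Flt3, chr5:147400490-147400739: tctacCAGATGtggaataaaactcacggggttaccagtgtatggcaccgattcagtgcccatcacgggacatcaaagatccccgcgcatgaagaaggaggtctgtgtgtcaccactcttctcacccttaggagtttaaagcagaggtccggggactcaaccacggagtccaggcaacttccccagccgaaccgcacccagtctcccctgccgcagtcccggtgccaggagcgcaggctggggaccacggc
Cd34, chr1:194938571-194938820: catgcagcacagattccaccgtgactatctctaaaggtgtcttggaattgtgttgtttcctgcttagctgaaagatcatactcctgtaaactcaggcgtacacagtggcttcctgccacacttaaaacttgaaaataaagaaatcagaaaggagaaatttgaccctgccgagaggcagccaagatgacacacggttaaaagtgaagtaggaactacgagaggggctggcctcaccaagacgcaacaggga
The Kit stretch is rich in C and G, with 17 CG dinucleotides and 70.8% G or C, against medians of 6 and 52.4% over 32851 RefSeq promoters cut to the same length. Flt3 has 13 CG and 59.2% G or C, and Cd34 has 6 CG and 46.4%. On either strand, the ETS motif GAGGAA occurred 1 time in Kit and is found in 23.3% of all promoters. The E-box CAGNTG occurred 1 time in Flt3 and is found in 44.8%. The GATA motif AGATAA, the RUNX motif TGTGGT, the C/EBP motif TTGCNNAA and the MYB motif AACTG were not in these 3 windows, against 9.99%, 14.0%, 9.56% and 39.1% of all promoters. The matches shown do not overlap each other, and all are descriptions of letters only.

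The data were 1 list of MACS2 broad peaks per library, with 18484 to 32975 peaks covering 9.23 to 17.9 Mb. T618I lists covered 12.6 to 17.9 Mb and Empty lists 9.23 to 16.8 Mb. The number of reads is unknown, so a site without a peak is a site at which none was called, not a closed site. Coverage is therefore given as scaled kb, the peak-covered length in the window of a gene after all libraries were set to the same total covered length. Peak strength is given as a percentile, where 100 is the peak of highest −log10 p in its own library. Peak lists cannot show whether the Asxl1 guide cut, and no value of the targeted gene was used as a check of the labels. The Kit and Flt3 starts had a peak in 12 of 12 libraries and the Cd34 start in 10 of 12. These are the genes under study, so their peaks are no separate check of the cell type. Of all regions in the series, 23.6% had a peak in all 12 libraries. Chromosome 1, which carries Cd34, held 8.75 to 10.1% of the covered length in the 6 sgB2 libraries and 6.40 to 6.86% in the 6 sgNT libraries, without overlap. The guide thus moves with the share of a whole chromosome, and Cd34 coverage is given also after scaling within its chromosome. Percentiles were taken over the peaks of all chromosomes and are given in that form only.

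Kit had the least peak coverage of the 3 genes. Averaged over 12 libraries it held 1.26 scaled kb, at percentile 23.3 of the 15286 protein-coding genes tested, whose median was 2.23 scaled kb. Flt3 held 3.14 scaled kb, at percentile 69.7, and Cd34 held 2.96 scaled kb, at percentile 66.1. These levels are per window and not per base, and the windows differ in length by the gene spans of 81.7 kb for Kit, 69.7 kb for Flt3 and 22.5 kb for Cd34. They also take in peaks at other genes. In the Flt3 window, the region at the start of Pan3 averaged 1.30 scaled kb in T618I and 1.24 in Empty libraries. In the Cd34 window, a region at the promoter of Gm16897 averaged 1.02 and 0.869.

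Coverage at Kit fell with CSF3R T618I. The sgB2/T618I libraries held 0.595, 1.05 and 0.777 scaled kb, the sgNT/T618I libraries 0.960, 1.15 and 0.936, the sgB2/Empty libraries 1.84, 1.74 and 1.29, and the sgNT/Empty libraries 1.79, 1.69 and 1.32. All 6 T618I libraries lay below all 6 Empty libraries, a separation in this direction that 1.5% of the tested genes also showed. The means were 0.911 ± 0.198 scaled kb in T618I cells and 1.61 ± 0.244 scaled kb in Empty cells (SD, n = 6 each). On the log2 scale after adding 500 bp, which understates the change of a gene this low, the T618I change of Kit coverage averaged over both guides was -0.59 ± 0.12 (SE), with an adjusted p of 0.00853 (limma, Benjamini-Hochberg over all genes tested). In this comparison 6.49% of the genes passed, 2.43% as lower. An exact permutation test over the libraries gave p = 0.005, two-sided, the smallest that its 400 arrangements allow. Before scaling the sets overlapped, with 570 to 1345 bp in T618I libraries and 1181 to 1740 bp in Empty libraries. Without scaling the change was -0.35 with an adjusted p of 0.146 in limma, so the call rests on the scaling to equal covered length.

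**Figure D1:**
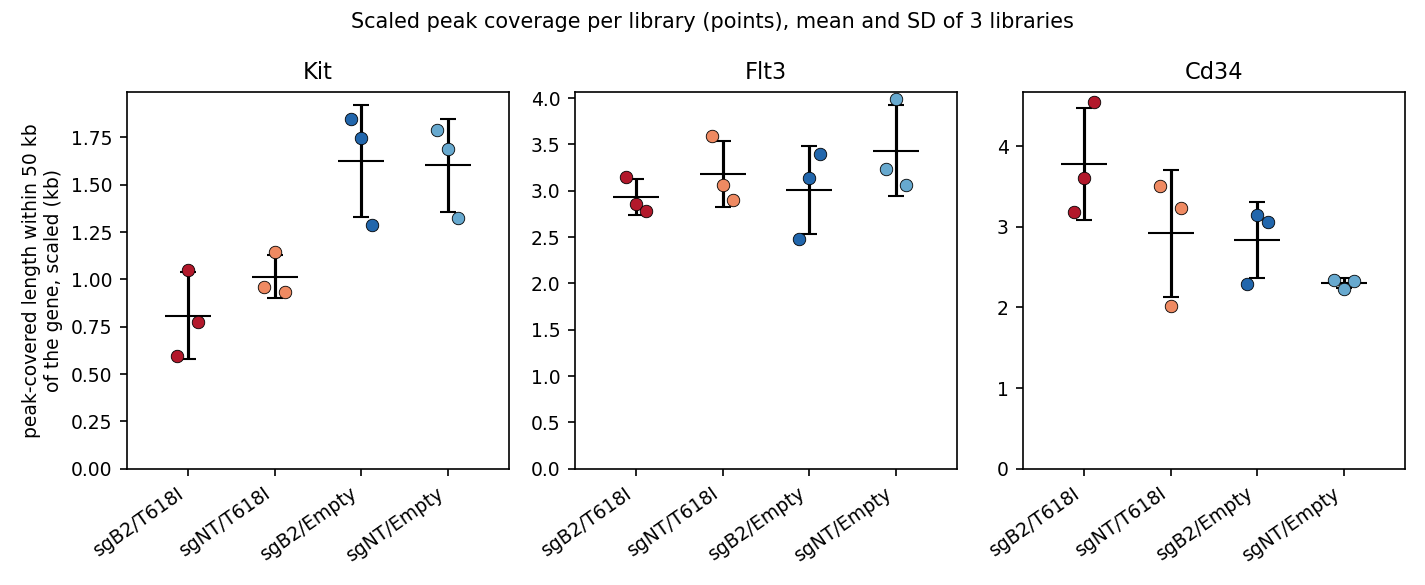
Scaled peak coverage (kb, y axis) around Kit, Flt3 and Cd34 in the 4 groups (x axis). Points are libraries, and bars show the mean and SD of 3 libraries. At Kit the 6 T618I libraries lie between 0.595 and 1.15 scaled kb and the 6 Empty libraries between 1.29 and 1.84, whereas the 4 groups overlap at Flt3 and the vectors overlap at Cd34.

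The change of Kit was measured in each guide background. In sgB2 cells Kit coverage was 0.808 ± 0.229 scaled kb with T618I and 1.63 ± 0.297 with the empty vector (SD, n = 3 each), a log2 change of -0.71 ± 0.17 with an adjusted p of 0.048 in limma, where 1.6% of the genes passed. In sgNT cells it was 1.01 ± 0.115 scaled kb with T618I and 1.60 ± 0.246 with the empty vector, a log2 change of -0.47 ± 0.17 with an adjusted p of 0.222 in limma, where 1.49% passed. That 1 background passed and the other did not is no difference between them. The interaction of the guide and the vector, which tests that difference, was -0.24 ± 0.24 on the log2 scale (adjusted p = 0.999, limma), and 0.00654% of the genes passed it. The call in sgB2 cells was lost in 8 of the 12 fits that each left out 1 library, with log2 changes from -0.84 to -0.58 and adjusted p up to 0.185. It was kept without sgB2/T618I library 2, sgB2/Empty library 3, and sgNT/Empty library 1 or 3. In the mean over both guides the same 12 fits all kept the call.

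The Asxl1 guide alone did not move Kit coverage by an amount that passed. The sgB2 change of Kit averaged over both vectors was -0.11 ± 0.12 on the log2 scale (adjusted p = 0.768, limma), in a comparison where 2.83% of the genes passed. It was 0.013 ± 0.17 in Empty cells, where 0.353% of the genes passed, and -0.22 ± 0.17 in T618I cells, where 0.36% passed (adjusted p = 0.993 and 0.776, limma). The sgB2/T618I cells against the sgNT/Empty cells, which differ in both changes, gave -0.69 ± 0.17 for Kit (adjusted p = 0.0343, limma), where 3.75% of the genes passed and 1.6% passed as lower. That call was lost without sgB2/T618I library 1 or 3 (adjusted p = 0.132 and 0.0919) and without sgNT/Empty library 1 or 2 (0.0854 and 0.106), in limma. These comparisons share groups and are not independent of one another.

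Most of the lower Kit coverage sat at the promoter. Of the 6 regions around Kit, only chr5:75574703-75576150, which covers the transcription start, had a peak in all 12 libraries. It held 0.858 ± 0.147 scaled kb with T618I and 1.35 ± 0.277 with the empty vector (SD, n = 6 each), and made up 69.6% of the difference in mean coverage of the whole window. The region 40.9 kb into the gene made up 23.1%. The peak of the promoter region stood at percentiles 22.5, 27.5 and 31.6 in sgB2/T618I libraries and 40.5, 32.2 and 31.8 in sgNT/T618I libraries. It stood at 60.7, 61.2 and 46.5 in sgB2/Empty libraries, and at 40.1, 53.5 and 52.9 in sgNT/Empty libraries. The Kit promoter peak was thus in the weaker part of the T618I lists and near the middle or above it in most Empty lists, with 1 T618I library just above the lowest Empty library. The mean percentile was 31.0 ± 5.93 with T618I and 52.5 ± 8.17 with the empty vector (SD, n = 6 each). The T618I change averaged over both guides was -21.5 ± 5.37 percentile points (SE; adjusted p = 0.0193, limma over the 13356 regions found in all libraries). In that fit 9.64% of the regions passed, 2.21% as lower, and the median change of all regions was 2.12 points. In sgB2 cells the change was -29.0 points (adjusted p = 0.0482, limma, 2.97% passed). That call was lost with the replicate number as a block (adjusted p = 0.0536), with ranking by the deposited fold (-20.3 points, 0.181), with absent peaks at percentile 0 (0.103) and with scaled covered length (0.114). It was also lost in 9 of the 12 fits that left out 1 library (adjusted p up to 0.157), and kept without sgB2/Empty library 3 and without sgNT/Empty library 1 or 3. In sgNT cells the change was -14.0 points (adjusted p = 0.430, limma, 0.517% passed), and the difference between the backgrounds did not pass (interaction -14.9 ± 10.7 points, adjusted p = 0.9997, limma; 0.0% of regions passed it, and 234 higher and 233 lower had an unadjusted p below 0.05). For sgB2/T618I against sgNT/Empty cells the promoter percentile changed by -21.6 points and did not pass (adjusted p = 0.156, limma, 2.63% passed).

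The call on the Kit promoter percentile was close to its threshold. When peaks were ranked by the fold over background that the authors deposited, the change was -13.6 points with an adjusted p of 0.133 in limma. When all 37113 regions found in at least 2 libraries were fitted with absent peaks at percentile 0, it was the same -21.5 points with an adjusted p of 0.0506. Leaving out sgNT/T618I library 2 or 3 gave -20.8 and -20.7 points with adjusted p of 0.0515 and 0.0535, in limma. The deposited fold of this peak was 3.60 to 4.45 in T618I libraries and 4.39 to 5.56 in Empty libraries. Among peaks with a −log10 q of at least 5, the Kit promoter had a peak in 1 of 6 T618I libraries and in 6 of 6 Empty libraries. In lists cut to the 18484 strongest peaks of each library, it had one in 3 of 6 T618I libraries and in 6 of 6 Empty libraries. No share over all regions is given for these filtered lists, so the counts are descriptions only.

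The other 5 regions around Kit were in few libraries. The region at chr5:75615717-75616038, 40.9 kb into the gene, had a peak in 0 of 6 T618I libraries and in 4 of 6 Empty libraries, at percentiles of 31.9 to 61.2 where present. It is named after its values were seen. Its exact p was 0.08, two-sided. It was 0.02 without sgB2/Empty library 3 or sgNT/Empty library 1. Both are Empty libraries that had no peak there, so this lower p is no further support. With absent peaks at percentile 0 the T618I change was -29.3 points (adjusted p = 0.080, limma), so it did not pass, where 1.92% of the regions passed as lower. No region of the 37113 passed the presence test after adjustment (0.0%), although 126 (0.34%) had an exact p below 0.05 as less often present with T618I and 845 (2.28%) as more often present. The remaining 4 Kit regions had a peak in 1 library each, at percentiles of 7.48 to 16.1.

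**Figure D2:**
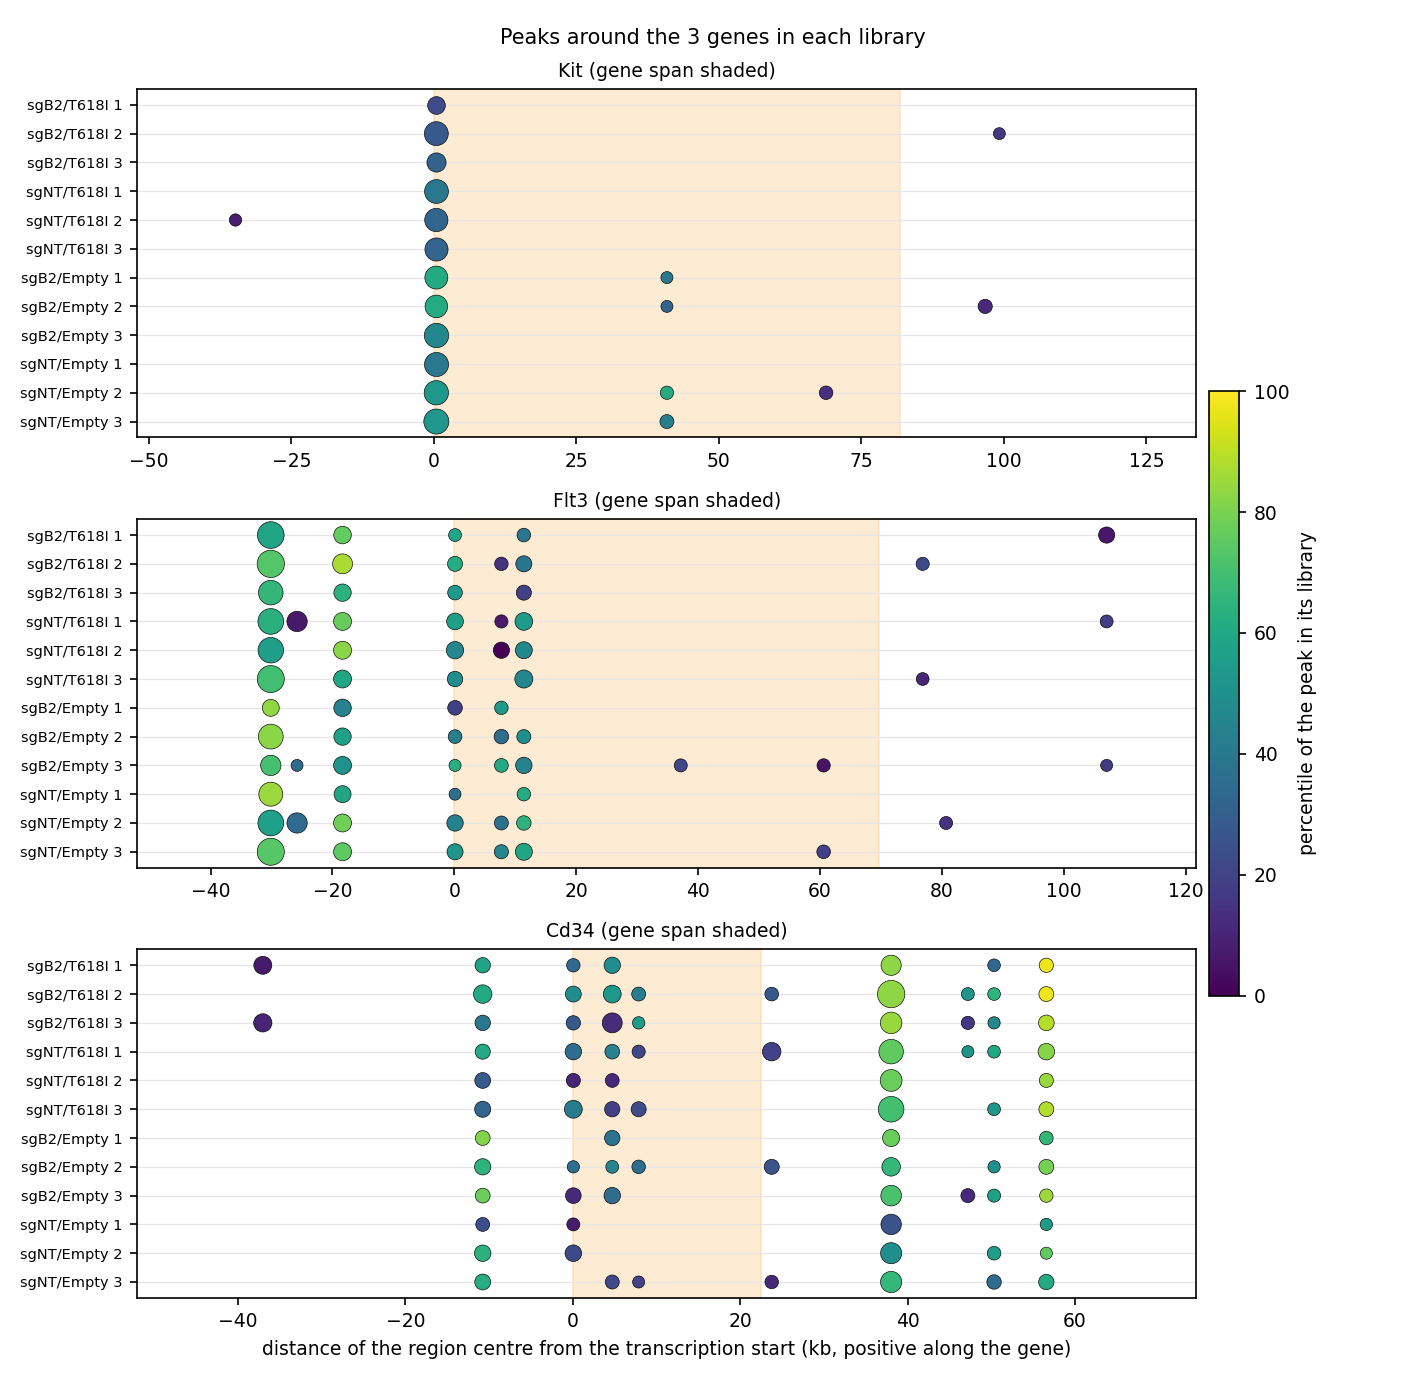
Peaks around Kit, Flt3 and Cd34 in each library. The x axis is the distance of the region from the transcription start (kb, positive along the gene), each line is 1 library, shading marks the gene span, point area grows with the covered length, and colour is the percentile of the peak in its library. The Kit start has a peak in all 12 libraries at lower percentiles in the 6 T618I libraries, and the region at 40.9 kb has a peak in Empty libraries only (4 of 6).

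Flt3 coverage did not differ beyond the spread of the libraries. The sgB2/T618I libraries held 3.15, 2.85 and 2.78 scaled kb, the sgNT/T618I libraries 3.59, 3.07 and 2.90, the sgB2/Empty libraries 2.48, 3.14 and 3.40, and the sgNT/Empty libraries 3.24, 3.99 and 3.06. All 4 groups overlapped in range. The T618I change averaged over both guides was -0.06 ± 0.10 on the log2 scale (adjusted p = 0.744, limma), and the sgB2 change averaged over both vectors was -0.13 ± 0.10 (adjusted p = 0.571). In the other 6 comparisons the Flt3 changes ran from -0.19 to 0.067, and none passed. The T618I change of Flt3 was 0.21 without scaling and 0.058 when libraries were scaled to the regions found in all of them, so its sign is not fixed by these data.

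Of the 11 regions around Flt3, 3 had a peak in all 12 libraries. The promoter region chr5:147400087-147400640 also overlaps the RefSeq promoter of Gm26597. It stood at percentiles of 46.4 to 61.6 in T618I libraries and 18.6 to 63.3 in Empty libraries, with a T618I change of 11.5 ± 6.61 points (adjusted p = 0.275, limma). The region 18.3 kb upstream, chr5:147418439-147419205, stood at 59.2 to 87.1 in T618I libraries and 44.1 to 78.2 in Empty libraries, a change of 13.6 ± 5.70 points (adjusted p = 0.135). The third, 30.1 kb upstream at chr5:147429764-147431435, lies at the start of Pan3, a cofactor of mRNA deadenylation, and stood at 55.6 to 73.1 in T618I libraries and 56.5 to 84.8 in Empty libraries, a change of -10.7 ± 5.40 points (adjusted p = 0.211). None of these 3 passed, and their ranges overlapped between the vectors with both guides pooled. In sgB2 cells the T618I change 18.3 kb upstream was 25.3 points and in sgNT cells 1.86 points (adjusted p = 0.0986 and 0.949, limma). Neither passed, nor did their difference (interaction 23.4 ± 11.4 points, adjusted p = 0.9997, limma). A region 11.4 kb into Flt3, chr5:147388760-147389386, had a peak in 6 of 6 T618I libraries and in 5 of 6 Empty libraries.

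One region inside Flt3 had lower percentiles with T618I, in a fit chosen after its values were seen. At chr5:147392412-147393103, 7.73 kb into the gene, a peak was called in 3 of 6 T618I libraries, at percentiles 14.2, 6.79 and 0.327, and in 5 of 6 Empty libraries, at 35.1 to 60.3. The 3 T618I peaks were thus weaker than every Empty peak, and the Empty library without a peak was 1 of the sgNT cells. The number of libraries did not differ (exact p = 0.56, two-sided), but with absent peaks at percentile 0 the T618I change was -35.3 ± 8.61 points (adjusted p = 0.0237, limma), in the fit where 1.92% passed as lower. It did not pass in 1 background alone, with -25.5 points in sgNT cells and -45.0 in sgB2 cells (adjusted p = 0.325 and 0.0632, limma). In the lists cut to equal length the region had a peak in 0 of 6 T618I libraries and in 5 of 6 Empty libraries, a description without a share over all regions. This region, like the fit that called it, was chosen after its values were seen. The other 6 Flt3 regions had a peak in 1 to 3 libraries each.

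**Figure D3:**
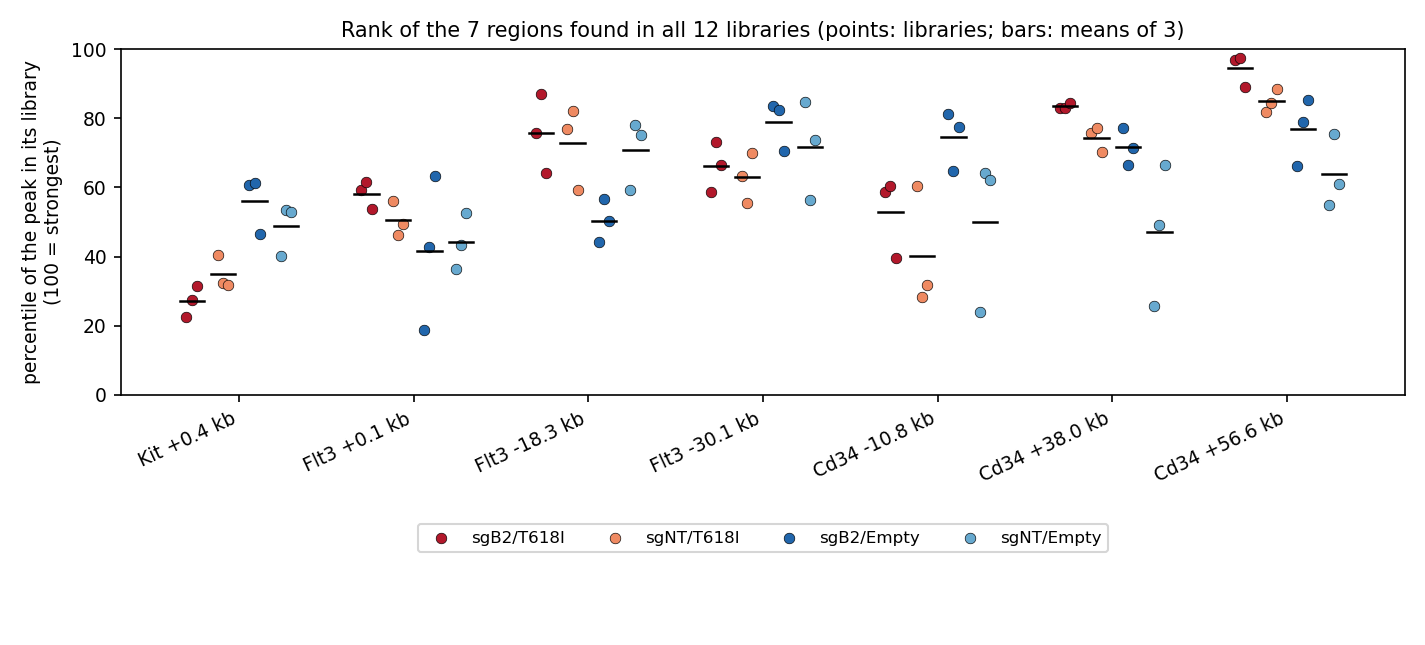
Percentile of the peak in its library (y axis, 100 is the strongest) for the 7 regions around Kit, Flt3 and Cd34 that had a peak in all 12 libraries, named by distance from the transcription start (x axis). Points are libraries and bars are means of 3. The Kit start averages 31.0 in T618I and 52.5 in Empty libraries, while the Cd34 region at 56.6 kb is higher with T618I.

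Cd34 coverage differed by amounts that did not pass, with higher means in T618I cells and in sgB2 cells. The sgB2/T618I libraries held 3.19, 3.61 and 4.54 scaled kb, the sgNT/T618I libraries 3.50, 2.02 and 3.24, the sgB2/Empty libraries 2.29, 3.15 and 3.07, and the sgNT/Empty libraries 2.34, 2.23 and 2.33. The sgB2/T618I libraries lay above all 3 sgB2/Empty libraries, though by little, a separation that 7.81% of the tested genes also showed. They lay above all 3 sgNT/Empty libraries too, as in 8.52% of the genes, and overlapped the sgNT/T618I libraries. The T618I change averaged over both guides was 0.31 ± 0.12 on the log2 scale (adjusted p = 0.149, limma; exact permutation p = 0.055). Without sgNT/T618I library 2, the lowest of the T618I libraries, it was 0.41 with an adjusted p of 0.0461 in limma. That library ran most against the difference, so this lower p is no further support. The sgB2 change averaged over both vectors was 0.29 ± 0.12 (adjusted p = 0.246, limma; exact permutation p = 0.06). The sgB2/T618I cells against the sgNT/Empty cells gave 0.60 ± 0.17 (adjusted p = 0.064, limma). That value was 0.19 (adjusted p = 0.638) when libraries were scaled to the covered length of the gene's own chromosome, and it passed without sgNT/T618I library 2 (0.60, adjusted p = 0.0357). This library is in neither of the groups compared and the change stayed at 0.60, so only the estimated spread and the adjustment differed. The interaction was 0.098 ± 0.24 (adjusted p = 0.999, limma).

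The sgB2 difference at Cd34 has to be read beside the share of chromosome 1. Over the 945 tested genes of chromosome 1 the median sgB2 log2 change was 0.28, and 94.3% of them were above 0, while the median over all other chromosomes was -0.0064. The value of Cd34, 0.29, was close to the median of its chromosome. When each library was scaled to the covered length of the gene's own chromosome, an alternative added after the data were seen, the sgB2 change of Cd34 was -0.11 (adjusted p = 0.737, limma). The T618I change of Cd34 was 0.31 under that scaling too, and the median T618I change on chromosome 1 was -0.044, against -0.055 on all other chromosomes. What lies behind the chromosome 1 share was not tested.

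At Cd34, 2 downstream regions were stronger with T618I in the mean over both guides. The region at chr1:194976060-194977650, 38.0 kb from the start and beyond the gene end, overlaps the RefSeq promoter of Gm16897 and stood at percentiles of 70.2 to 84.5 in T618I libraries and 25.7 to 77.2 in Empty libraries. Its T618I change was 19.5 ± 5.78 points (adjusted p = 0.0411, limma; 7.43% of regions passed as higher). The region at chr1:194995124-194995664, 56.6 kb from the start, stood at 81.7 to 97.5 in T618I libraries and 54.9 to 85.4 in Empty libraries, a change of 19.4 ± 4.16 points (adjusted p = 0.00918). It was the strongest peak around the 3 genes in all 6 T618I libraries. Ranked by the deposited fold, these changes were 15.2 and 16.6 points with adjusted p of 0.188 and 0.104. By scaled covered length in place of the percentile, their log2 changes were 0.21 and 0.098 and did not pass in limma. The call at 38.0 kb was lost in 11 of the 12 fits that left out 1 library (adjusted p from 0.00638 to 0.0909; kept without sgNT/Empty library 3), while that at 56.6 kb was kept in all 12. Neither region passed in 1 background alone. In sgNT cells the T618I changes were 27.3 points at 38.0 kb and 21.1 at 56.6 kb (adjusted p = 0.148 and 0.120, limma, 0.517% passed). In sgB2 cells they were 11.7 and 17.6 points (adjusted p = 0.460 and 0.111, limma, 2.97% passed). For sgB2/T618I against sgNT/Empty cells they were 36.4 and 30.7 points and passed (adjusted p = 0.0234 and 0.0116, limma, 2.63% passed). The groups of that comparison also differ in the guide and so in the share of chromosome 1.

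The sgB2 changes of these Cd34 regions did not pass. They were 16.8 ± 5.78 points at 38.0 kb (adjusted p = 0.145, limma, where 2.07% of regions passed; 21.7 points and 0.0382 without sgNT/Empty library 3) and 11.3 ± 4.16 points at 56.6 kb (adjusted p = 0.174). The region 10.8 kb upstream, chr1:194927752-194928386, also had a peak in all 12 libraries, at 28.3 to 60.4 in T618I libraries and 23.9 to 81.3 in Empty libraries, a T618I difference of -15.8 ± 7.64 points (adjusted p = 0.193) that did not pass. Ranked only among the regions found in all libraries, the change there was -23.1 points and passed (adjusted p = 0.0216, limma).

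The Cd34 start itself was weakly covered. The region chr1:194938543-194939242 had a peak in 6 of 6 T618I libraries and in 4 of 6 Empty libraries (exact p = 0.5, two-sided), at percentiles of 10.3 to 49.1 with T618I and 7.32 to 35.8 with the empty vector. With absent peaks at percentile 0 the T618I change at the start was 20.4 ± 8.76 points (adjusted p = 0.170, limma), in the fit where 7.67% of the regions passed as higher. The region 4.72 kb into the gene had a peak in 6 of 6 T618I libraries and in 4 of 6 Empty libraries, and that 7.88 kb into it in 4 of 6 and 2 of 6. The region just behind the gene end, 23.8 kb from the start, was found in 2 of 6 T618I libraries and in 2 of 6 Empty libraries, at percentiles of 11.5 to 27.0. Of the 3 remaining regions, that at 50.3 kb was in 9 libraries, that at 47.2 kb in 4, and that 37.0 kb upstream in 2 sgB2/T618I libraries. The last overlaps the RefSeq promoter of Gm39748, and its peaks stood at percentiles 6.93 and 9.94. It made up 27.9% of the T618I difference in mean Cd34 coverage. The region 4.72 kb into the gene made up 22.7%, that at 38.0 kb 19.2% and that at 56.6 kb 3.24%.

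Over the 27 regions together, 7 had a peak in all 12 libraries (25.9%), against 23.6% of all regions in the series, and 6 had a peak in 1 library (22.2%, against 34.5% of all regions). These 6 lay around Kit (4) and Flt3 (2). By gene, 1 of 6 Kit regions, 3 of 11 Flt3 regions and 3 of 10 Cd34 regions were in all libraries. No exon or intron annotation was used here, so a region is placed only by its distance to the gene ends.

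The genes whose coverage ran most like that of a member over the 12 libraries were Gk5 (r = 0.93), Vill (0.90) and Gm29975 (0.90) for Kit, Sap18 (0.88), Trappc9 (0.87) and Gm16867 (0.84) for Flt3, and Ugt1a6a (0.89), Tex46 (0.86) and Nabp1 (0.86) for Cd34. These are Pearson correlations of log2 scaled coverage, chosen as the 3 highest of all tested genes, and they share the libraries and their scaling. Ugt1a6a and Nabp1 lie on chromosome 1 like Cd34. Gk5, for example, held 1.39 and 1.55 scaled kb in sgB2/T618I and sgNT/T618I cells, against 2.00 and 1.84 in sgB2/Empty and sgNT/Empty cells. Among the members, Kit and Cd34 had r = -0.63, Kit and Flt3 0.10, and Flt3 and Cd34 -0.17.

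Genes of the same pathways were taken from lists, and most did not pass. Kitl, the gene for SCF, had too little coverage to be tested, at 0 in 3 groups and 0.279 ± 0.483 scaled kb in sgB2/Empty cells. Flt3l, the ligand of Flt3, had a T618I log2 change of -0.15 ± 0.10 (adjusted p = 0.385, limma). Of the related receptor kinases, Csf1r, the receptor of macrophage colony-stimulating factor, had a log2 difference of -0.29 ± 0.15 and Pdgfrb one of -0.29 ± 0.21, and neither passed. Pdgfra and the CD34 relatives Podxl and Emcn had too little coverage to be tested, and Emcn had no peak in any library.

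Among 29 other progenitor surface genes, 26 were tested. With T618I 4 rose in limma, 0 fell (6 and 0 at an unadjusted p below 0.05) and 22 did not pass, with a median log2 change of 0.10, against -0.05 over all genes, of which 4.06% rose. At that unadjusted p, 1544 of all 15286 genes were higher with T618I and 1911 lower. Il1rl1, the interleukin-33 receptor of mast cells and some progenitors, held 6.13 ± 0.739 and 4.48 ± 0.330 scaled kb in sgB2/T618I and sgNT/T618I cells, against 3.55 ± 0.209 and 2.26 ± 0.515 in sgB2/Empty and sgNT/Empty cells, a T618I change of 0.79 ± 0.10 (adjusted p = 2.2e-04, limma). Slamf1, or CD150, a marker of stem cells, changed by 0.73 ± 0.13 (adjusted p = 0.00285). The others were Fcgr2b, an inhibitory Fc receptor (0.46), and Csf2rb2, the β chain of the mouse interleukin-3 receptor (0.37). Windows of Fcgr2b and Fcgr3, and of Csf2rb2 and Csf2rb, lie side by side and share peaks.

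With the Asxl1 guide, 2 of these 26 surface genes rose, 1 fell and 23 did not pass (median 0.076, against 0.0037 over all genes, of which 1.52% rose and 1.3% fell). Slamf1 (0.60 ± 0.13) and Il1rl1 (0.49 ± 0.10) rose and lie on chromosome 1, whose share of the covered length moved with the guide. Prom1, the gene for the stem cell marker CD133, lies on chromosome 5 like Kit and Flt3 and fell by 0.63 ± 0.15 on the log2 scale (adjusted p = 0.0321, limma). It held 0.762 ± 0.248 and 0.745 ± 0.241 scaled kb in sgB2/T618I and sgB2/Empty cells, against 1.43 ± 0.525 and 1.45 ± 0.207 in sgNT/T618I and sgNT/Empty cells.

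Of 23 genes for signal transducers and inhibitors downstream of Kit and Flt3, 1 rose with T618I, a share near the 4.06% of all genes that rose, 0 fell (4 and 1 at an unadjusted p below 0.05, limma) and 22 did not pass (median -0.014). It was Gab2, an adaptor phosphorylated downstream of Kit, with 0.46 ± 0.12 (adjusted p = 0.0353, limma). At an unadjusted p below 0.05, 1544 of all 15286 genes were higher with T618I and 1911 lower. With the Asxl1 guide Inpp5d, the lipid phosphatase SHIP1 on chromosome 1, rose (0.37 ± 0.09), Cbl, a ubiquitin ligase that removes activated Kit, fell by 0.51 ± 0.12, and 21 did not pass. Over all genes 1.52% rose and 1.3% fell with the guide. Of the 15 tested transcription factors known to act at Kit, Flt3 or Cd34, 1 rose with T618I, Spi1, which encodes PU.1 (0.28 ± 0.08, adjusted p = 0.039, limma), and 14 did not pass. For the Asxl1 guide 0 of these 15 passed in limma, with 1 higher and 5 lower at an unadjusted p below 0.05. Over all 15286 genes, 1151 were higher and 1242 lower at that p. The median sgB2 change of the 15 was -0.17, against 0.0037 over all genes.

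**Figure D4:**
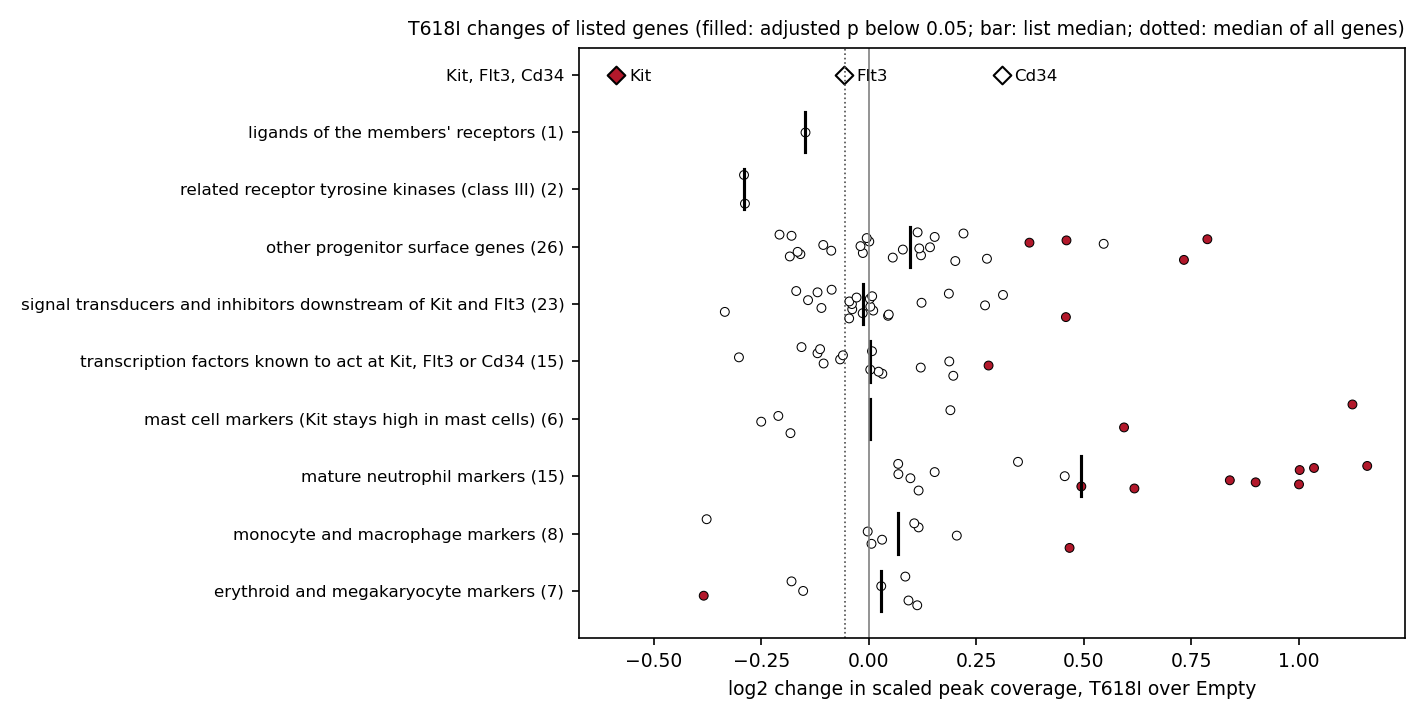
T618I log2 change in scaled peak coverage (x axis) of the listed genes, 1 line per list with the number tested in brackets. Filled points had an adjusted p below 0.05 in limma, black bars are list medians and the dotted line is the median of all genes. Kit is the only filled gene among the 3 members, at -0.59, and 8 of 15 mature neutrophil markers are filled on the higher side.

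Mature neutrophil genes moved with the vector. Of 15 mature neutrophil genes, 8 rose with T618I in limma, 0 fell (10 and 0 at an unadjusted p below 0.05) and 7 did not pass, with a median log2 change of 0.49, against -0.05 over all genes, of which 4.06% rose and 2.43% fell. Among them were S100a9 (1.04), Cd177 (1.16) and Csf3r itself (0.49 ± 0.08), the receptor whose mutant form the vector carries, and S100a8 and S100a9 share a window. At an unadjusted p below 0.05, 1544 of all 15286 genes were higher with T618I and 1911 lower. The summed coverage of the 6 defining neutrophil markers was 21.6 to 27.3 scaled kb in T618I libraries and 11.99 to 15.1 in Empty libraries, with no overlap and no marker at 0. Among single tested genes, 1.65% were likewise higher in all 6 T618I libraries than in all 6 Empty libraries. Peaks shared by S100a8 and S100a9 count with each of these genes in the sum. This sum and Kit coverage thus separate the same libraries in opposite directions, and the part of the neutrophil genes in the Kit result was not tested. In such bulk samples, fewer cells with an open site and less opening per cell cannot be told apart.

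Mast cells keep Kit high when other lineages lose it. Of 6 mast cell genes tested, 2 rose with T618I (Hdc, the enzyme that makes histamine, 0.59, and the protease gene Cma1, 1.13), 0 fell (2 and 1 at an unadjusted p below 0.05, limma) and 4 did not pass. The summed coverage of the 5 defining markers was 6.47 to 7.66 scaled kb in T618I libraries and 5.26 to 7.67 in Empty libraries, and Fcer1a was at 0 in all Empty libraries. Of 8 tested monocyte and macrophage genes, 1 rose (Ccr2, 0.47) and 0 fell (1 and 1 at an unadjusted p below 0.05), and the summed coverage of 4 markers was 8.72 to 9.97 scaled kb in T618I libraries and 7.46 to 9.07 in Empty libraries. Of 7 tested erythroid and megakaryocyte genes, 1 fell, Gp9, a platelet glycoprotein, by 0.38, and 0 rose (1 and 0 at an unadjusted p below 0.05). The 4 markers summed to 7.67 to 9.48 scaled kb in T618I libraries and 7.75 to 9.66 in Empty libraries. These 3 lists hold few genes, so 1 or 2 calls are read beside the 4.06% of all genes that rose and the 2.43% that fell, and their sums overlapped between the vectors. Their counts at an unadjusted p below 0.05 stand beside 1544 higher and 1911 lower of all 15286 genes with T618I. With the Asxl1 guide Ms4a2, a chain of the mast cell Fc receptor, and Gata1 rose (0.53 and 0.45), where 1.52% of all genes rose. Of the 15 neutrophil and 8 monocyte genes 0 passed in limma. At an unadjusted p below 0.05, 5 and 1 of them were lower and 0 higher. Over all 15286 genes, 1242 were lower and 1151 higher at that p.

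The T618I change of Kit kept its direction under 17 other settings, from -1.68 with peaks of −log10 q of at least 5 to -0.31 with 2000 bp added. It lost its call without scaling and when peaks were counted in place of covered length (-0.45, adjusted p = 0.217, limma). Changes of Flt3 stayed between -0.24 and 0.21 and those of Cd34 between 0.20 and 0.58 under the same settings, without passing.

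**Figure D5:**
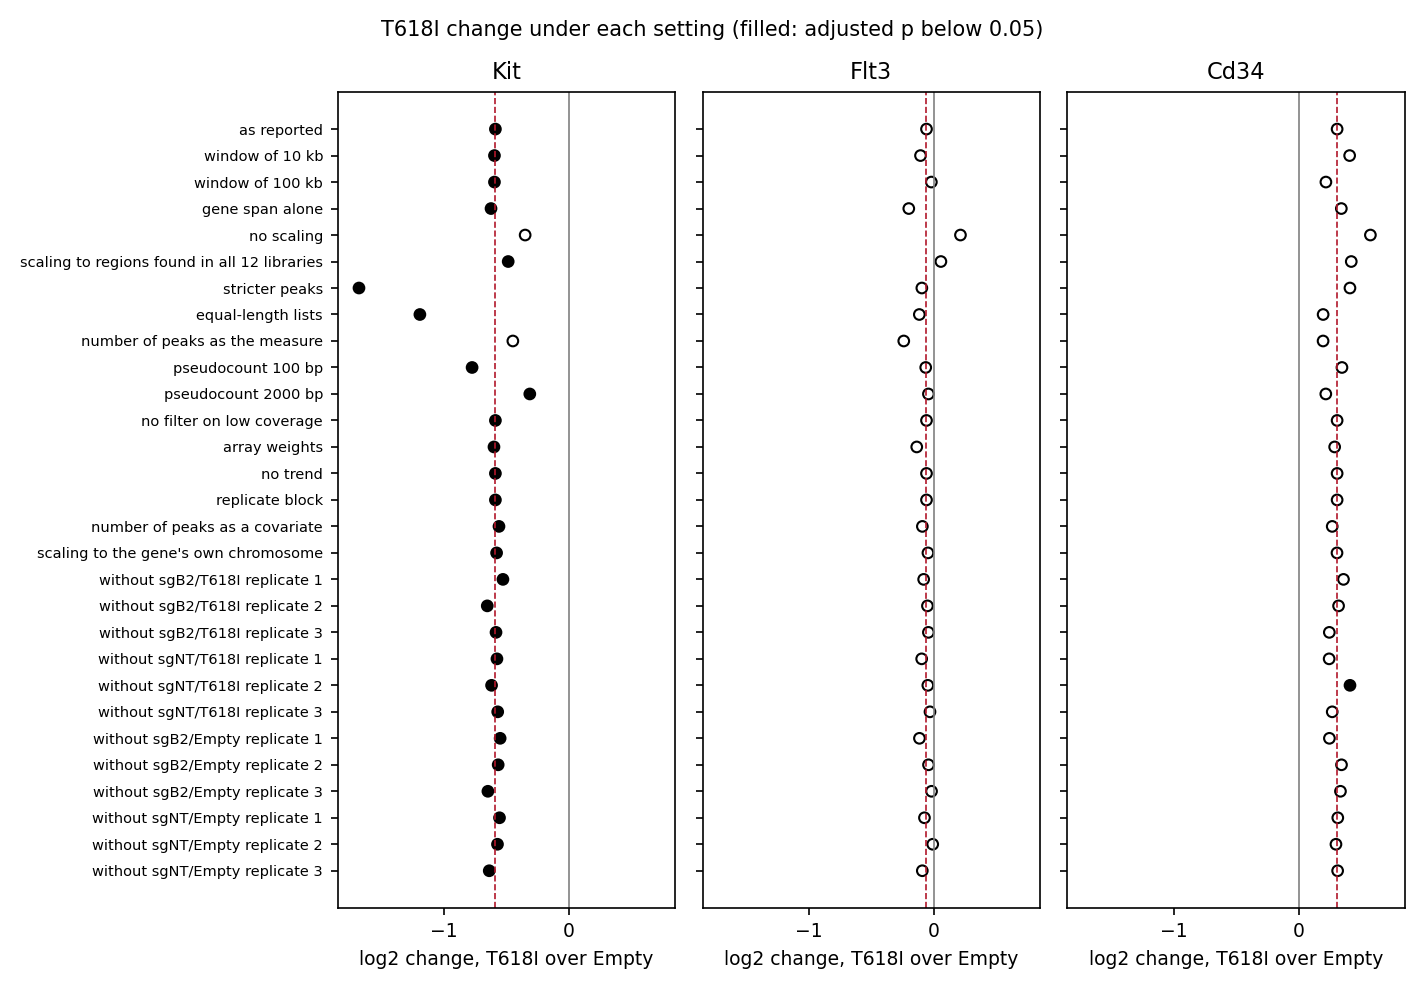
T618I log2 change in coverage (x axis) of Kit, Flt3 and Cd34 under each setting and with each library left out (lines). Filled points had an adjusted p below 0.05 in limma, and the dashed line is the reported value. Kit is filled except without scaling and with the number of peaks as the measure, while Cd34 is filled only without sgNT/T618I library 2.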

How the data were processed

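The submitters' processing notes name the mm10 genome, BWA 0.7.17, SAMtools 1.9, bedtools 2.30, deepTools 3.5 and MACS2 2.2.7.1, with which the authors made 1 broad peak list per library. Other steps are not given in the sources used here. The deposited −log10 p ranked peaks within a library and the deposited −log10 q filtered them. The fold over background, a ratio the authors deposited, served as a second ranking, and the deposited score was not used. The deposited start and end of each peak gave its covered length.

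Read depth is unknown, and a library with more called sequence covers more of any window. For each of 21887 protein-coding genes (RefSeq, GRCm38.p6) the covered length in the gene span and 50 kb on either side was scaled so that all libraries had the same total. After adding 500 bp, log2 values of the 15286 genes averaging 500 bp or more were fitted with limma 3.58.1 (trend, 4 groups, 8 residual degrees of freedom; R 4.3.3). Peaks overlapping by 1 bp or more were merged to regions. Presence was tested by exact permutation of the labels within the other factor over 37113 regions, and percentiles by limma over 13356. P-values were Benjamini-Hochberg adjusted within a comparison, with a threshold of 0.05. The effect of T618I was averaged over both guides, and that of sgB2 over both vectors. The gene fit was tested on simulated data. Tables were made with Python 3.11.15.

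The 3 genes, the lists and their tests were chosen with earlier results of these data known. Regions described in full were those within 1 kb of a gene end, found in all 12 libraries, at the smallest exact p, or present in all 3 libraries of a group and none of another. Named list genes were at most 4 per list by p-value among those that passed, and 3 genes of most similar pattern per member. Scaling to the gene's own chromosome and absent peaks at percentile 0 were added after the data were seen. Genes with neighbouring windows share peaks.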

Additional observations from a re-analysis of the deposited data

Results flagged for a closer look

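Among 40 sets of 6 libraries that were looked at (coverage of the 3 genes and percentiles of the 7 regions found in all libraries), 1 had a library far from its neighbours. Chance alone gives about 1 in every 20 such sets. The set with such a library was the region 10.8 kb upstream of Cd34 in Empty cells. The peak of sgNT/Empty library 1 stood at percentile 23.9, against 62.1 to 81.3 in the other 5 Empty libraries. Without that library the T618I difference at this region was -22.3 points and passed (adjusted p = 0.042, limma), where it was -15.8 points with all 12 libraries (adjusted p = 0.193). The library left out is the Empty library that ran most against the difference, so this pass is no further support.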

How the results depend on the processing

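Of 693 alternative values for the coverage of Kit, Flt3 and Cd34 in 8 comparisons, 615 kept their direction and their side of the threshold. In 44 the sign turned, and in 0 of these did the value pass (lowest adjusted p 0.419, limma). Causes were not tested. The lists hold no reads, so depth is unknown, peaks near the calling limit come and go between libraries, and a change in coverage mixes the number and the width of peaks.

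For the T618I mean effect on Kit coverage (log2 change -0.59), the call was lost without scaling (-0.35) and with the number of peaks (-0.45). The 12 fits without 1 library gave -0.65 to -0.53. In sgB2 cells (-0.71) the T618I call on Kit was lost with the gene span alone (-0.70), no scaling (-0.45), scaling to shared regions (-0.60), equal-length lists (-1.49), the number of peaks (-0.47), no filter (-0.71), a peak-number covariate (-0.68) and only the groups compared (-0.71), and ranged from -0.84 to -0.58 without 1 library. In sgNT cells (-0.47) it passed with stricter peaks (-1.48) and array weights (-0.49). For sgB2/T618I against sgNT/Empty (-0.69) it was lost with no scaling (-0.58), shared regions (-0.62), equal-length lists (-1.52), the number of peaks (-0.41) and only the groups compared (-0.69), and in 4 of 12 fits without 1 library (-0.82 to -0.57). The Kit promoter percentile lost its call when ranked by fold (-13.6) and with absent peaks at 0 (-21.5), and ranged from -23.9 to -20.2 points without 1 library.

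Signs that turned at Kit, none past the threshold, were the sgB2 mean effect with the number of peaks (0.034), sgB2 in T618I cells with the number of peaks (0.013), and sgB2 in Empty cells (0.013) with windows of 10 kb (-0.072) and 100 kb (-0.055), the gene span (-0.11), no scaling (-0.13), shared regions (-0.018), stricter peaks (-0.11), equal-length lists (-0.031), array weights (-0.061) and without 1 library (-0.086 to 0.13). At Flt3 they were the T618I mean effect with no scaling (0.21) and shared regions (0.058), in sgNT cells with 10 kb (0.16), the gene span (0.044), no scaling (0.18), shared regions (0.025) and without 1 library (-0.17 to 0.0085), in sgB2 cells with 100 kb (0.022), no scaling (0.25), shared regions (0.090) and without 1 library (-0.14 to 0.057), sgB2 in Empty cells with 10 kb (0.14), the gene span (0.095) and the number of peaks (0.072), and the interaction with 10 kb (-0.52), the gene span (-0.49), the number of peaks (-0.18) and without 1 library (-0.045 to 0.15).

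At Cd34, scaling to its own chromosome turned the sgB2 change, averaged (-0.11), in Empty cells (-0.19) and in T618I cells (-0.041). The sgB2 mean effect passed with a window of 100 kb (0.36), the T618I mean effect ranged from 0.24 to 0.41 without 1 library, and sgB2/T618I against sgNT/Empty passed with 100 kb (0.58) and array weights (0.60), ranged from 0.48 to 0.70 without 1 library and was 0.19 scaled to its own chromosome. The Cd34 interaction turned with 10 kb (-0.38), the gene span (-0.21), stricter peaks (-0.36), array weights (-0.015) and without 1 library (-0.11 to 0.23).

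Percentile results that turned were those of the Flt3 regions 18.3 and 30.1 kb upstream for T618I when scaled covered length (log2) was used (-0.20 and 0.11), and for sgB2 the Kit start ranked by fold (4.52) or among shared regions (4.67) and without 1 library (-2.34 to 2.25), the Flt3 start without 1 library (-2.90 to 8.26) and, by scaled covered length, the Flt3 start (-0.23), both Flt3 upstream regions (0.17 and -0.17) and the Cd34 region at 38.0 kb (-0.085). Presence of the Flt3 region at 11.4 kb turned with stricter peaks (a difference of -0.33 in the share of libraries) and equal-length lists (-0.17). Over all genes, the T618I mean effect called 992 genes, from 237 with the gene span alone to 1668 with array weights, and the sgB2 mean effect 432, from 22 without scaling to 1127 with array weights.

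Libraries with the same number did not deviate together: over 18 pairs the correlation ran from -0.16 to 0.22, 4 pairs were above 0.1, and 6 of 12 libraries correlated best with their own number, a hint from the data alone. With the replicate number as a block, Kit coverage changed by -0.59 with T618I (adjusted p = 0.00812, limma), 1036 genes were called in place of 992, and among the results named here the block ended only the call on the Kit promoter percentile in sgB2 cells (-29.0 points, adjusted p = 0.0536).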
